A study of Mus musculus with 8 samples.

Results

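Nrn1 Sostdc1 nucleus pulposus cells of 8 weeks are 658 cells among the 2177 nucleus pulposus (NP) cells of that age, a share of 30.2% (exact binomial 95% interval 28.3 to 32.2%), out of 13480 cells kept from the whole series. An NP cell was one with at least 30 unique molecular identifiers (UMIs) of the carbonic anhydrase Car3 and at least 10 UMIs of the keratins Krt8, Krt18 and Krt19 together. A member also had fewer than 5 UMIs of the proliferation genes Top2a, Mki67 and Birc5 together and no UMI of Wnt16. It had at least 2 of 5 first-set markers detected (Nrn1, Hopx, Sostdc1, Cck, Pkp1), and more of these than of 5 second-set markers (Inmt, Irf7, Ndnf, Slit2, Tmem255a). The other 1519 NP cells were 946 cells with Wnt16, 242 with more second-set than first-set markers (called Inmt Irf7 cells here), 204 that met neither description and 127 cycling cells. These genes were measured in the same cells, so their levels below describe the choice and are no finding.

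The cells came from whole lumbar and tail intervertebral discs of Tagln-CreERt2;R26tdTomato mice, digested with dispase and type II collagenase and profiled by droplet single-cell RNA sequencing. All mice carried both alleles and received tamoxifen at postnatal day 5, so the study has no control without Cre or tamoxifen. Discs were taken at postnatal day 10 (P10) or at 8 weeks, and the series asks whether cells marked through Tagln contribute to the NP. Each age has 4 listed samples but 1 count matrix with no map from cells to samples, so each age counts as 1 library. Age cannot be told apart from library, and no comparison between groups of cells could be tested across mice. The labels do not say whether a sample is 1 mouse or a pool.

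The NP is the soft core of the disc. Its cells descend from the embryonic notochord and are known for keratins, brachyury (T), Car3 and a matrix rich in aggrecan and collagen II, which binds water and bears load. With age, large notochord-like cells of this tissue are known to give way to smaller cells closer to chondrocytes. Of the first-set markers, Nrn1 encodes neuritin, a membrane-anchored protein known from neurite growth, and Sostdc1 a secreted inhibitor of BMP and Wnt signalling. Hopx is a small homeodomain protein without DNA binding, Cck the precursor of the peptide cholecystokinin, and Pkp1 the desmosomal plaque protein plakophilin. In GENCODE for mm10, Nrn1 lies on chromosome 13 (36725361 to 36735131, minus strand) and Sostdc1 on chromosome 12 (36314139 to 36318452, plus strand). Hopx is on chromosome 5 (77086988 to 77115121, minus), Cck on chromosome 9 (121489824 to 121495694, minus) and Pkp1 on chromosome 1 (135871395 to 135919207, minus).

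RefSeq promoter windows of GRCm38.p6 were matched by symbol for 2 of the 5 first-set markers, Hopx and Cck. They are shown with that of Meltf, a gene the rule did not use and whose level followed the markers. These are the windows with a match; those of Cspg4, Fgfr3 (2 starts), Ucma, Acan and the upstream start of Hopx held none of the letters below and are not printed. Each window of 300 bases is on the gene's strand, 5′ to 3′. Capitals mark matches, on either strand, to AACAAT (SOX factors), TGTTTAC (forkhead factors), TCACACC (T-box factors) and CACGTG (E-box); these do not overlap each other in the windows.
Hopx, chr5:77095218-77095517 (minus strand, the downstream of its 2 starts): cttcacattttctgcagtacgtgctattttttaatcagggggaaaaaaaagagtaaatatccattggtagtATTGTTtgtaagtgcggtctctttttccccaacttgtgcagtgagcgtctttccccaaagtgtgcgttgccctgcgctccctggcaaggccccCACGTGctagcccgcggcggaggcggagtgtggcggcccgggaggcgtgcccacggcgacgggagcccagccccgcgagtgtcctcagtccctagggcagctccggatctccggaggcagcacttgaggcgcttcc
Cck, chr9:121495645-121495944 (minus strand): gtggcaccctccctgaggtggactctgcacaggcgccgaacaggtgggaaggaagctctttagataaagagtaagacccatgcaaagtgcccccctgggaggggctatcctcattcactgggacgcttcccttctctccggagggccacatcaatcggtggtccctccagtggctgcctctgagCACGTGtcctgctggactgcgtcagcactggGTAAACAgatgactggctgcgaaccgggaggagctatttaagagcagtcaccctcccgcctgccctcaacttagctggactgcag
Meltf, chr16:31878560-31878859 (plus strand): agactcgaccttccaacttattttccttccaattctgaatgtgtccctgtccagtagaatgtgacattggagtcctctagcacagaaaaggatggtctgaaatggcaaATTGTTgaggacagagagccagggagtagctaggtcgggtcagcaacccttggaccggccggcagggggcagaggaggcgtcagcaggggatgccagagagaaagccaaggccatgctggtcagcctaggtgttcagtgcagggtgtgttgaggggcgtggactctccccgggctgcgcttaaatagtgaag
Hopx and Meltf each held the SOX letters on the reverse strand, which 10.7% of the 32851 promoter windows of that length hold. Cck held the forkhead letters on the reverse strand (3.65% of windows), and Hopx and Cck each held the E-box (7.15%). The T-box letters (3.98% of windows) were in none of these windows. A match describes letters and is not a site of binding.

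The 8-week matrix held 7597 barcodes, of which 6481 passed the filters, and P10 7690, of which 6999 passed. Members had a median of 19657 UMIs per cell, the other NP cells 16183, the Wnt16 cells 16270, the Inmt Irf7 cells 9542 and the cycling cells 30040. Scrublet called 31 members (4.71%) and 64 other NP cells (4.21%) as doublets. The libraries shared 12 barcodes, and 0 members had a barcode kept in both. At least 10 UMIs of the markers of 1 of 8 classes (endothelial, mural, macrophage, neutrophil, leukocyte, Schwann, erythroid, osteoblast) were present in 64.9% of members, and in 2.89% (4.02% of other NP cells) once S100b was left out of the Schwann list. S100b alone had 737 CPM (UMIs per 1000000 UMIs) in members, while Foxd3 was at 0. Summed macrophage markers had 29.01 CPM in members and 26.4 in other NP cells (11675 in leukocytes), leukocyte markers 0.893 and 3.52, and endothelial markers 114.7 and 84.7 (5378 in endothelial cells). Adgre1 and Ptprc were at 0 in the members. Connective fibroblast markers had 166.4 and 119.2 CPM, with Pi16 and Dpt at 0 in members. Erythroid markers had 663 and 375 CPM, with at least 10 UMIs in 5 members and 3 other NP cells. Markers of chondrocytes and inner annulus, none of them at 0, had 604 and 488 CPM, with at least 10 UMIs in 170 of 658 members and 210 of 1519 other NP cells. Ucma (236 and 132 CPM) and Cilp are also in the list of cartilage and NP matrix below, so these markers and that list are not separate. The part of these markers in the matrix results was not tested. Hypertrophic chondrocyte markers had 205 and 308 CPM. Tendon and annulus markers were high in both groups (3543 and 2884) through Fmod.

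The 10 genes of the rule show how the members were set apart. Levels are summed UMIs of a group per 1000000 gene UMIs of the same cells, and all intervals are exact 95% intervals that cover counting error only. Nrn1 had 197.6 CPM in members (190.4 to 204.9), 122.4 in Wnt16 cells, 94.3 in cycling cells and 4.88 in Inmt Irf7 cells. It had 0 UMIs in leukocytes, with an exact upper bound of 4.82 CPM. In single members Nrn1 ranged from 0 to 1023 CPM with a median of 124, so the groups overlap widely; it was detected in 66.9% of members and 31.8% of other NP cells. With each cell thinned to 2000 UMIs, which left out no member and 10 other NP cells, these shares were 28.0% and 11.9%. Sostdc1 had 1354 CPM in members, 1026 in Wnt16 cells and 481 in Inmt Irf7 cells. Hopx had 966, 806 and 611 CPM, and Cck 949, 843 and 438. Pkp1 hardly differed, with 188 CPM in members, 189.9 in Wnt16 cells and 178 in Inmt Irf7 cells. Of the second set, Inmt had 249 CPM in members and 1434 in Inmt Irf7 cells, and Ndnf 16.02 and 285.

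**Figure D1:**
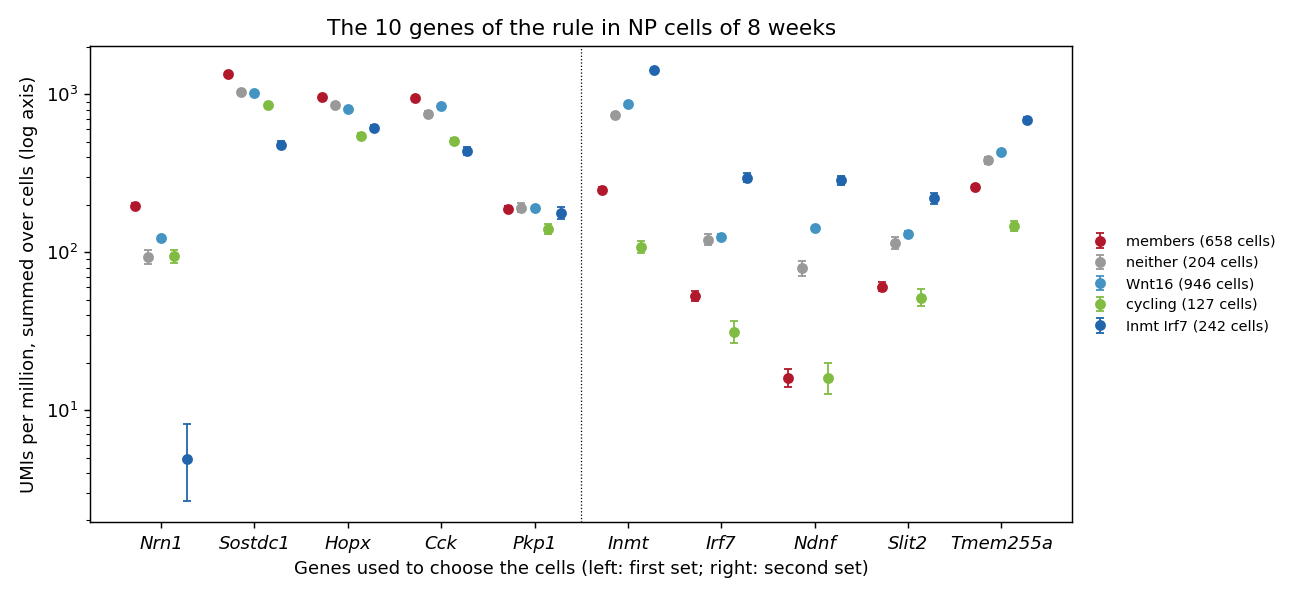
Summed level of each gene of the rule (UMIs per 1000000, log axis) in the 5 groups of NP cells of 8 weeks, with exact 95% intervals for counting error. Nrn1 ranges from 4.88 in Inmt Irf7 cells to 197.6 in members, while Pkp1 lies near the same level in members (188), Wnt16 cells (189.9) and Inmt Irf7 cells (178).

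Each marker was also left out in turn and the cells were chosen by the remaining genes. Both sets were chosen with earlier results of these data known. The values below are therefore a description and no independent support for the sets. Nrn1 was then 171 CPM in 514 chosen cells and 121 in the other 1663 NP cells, a log2 ratio of 0.50 (interval 0.42 to 0.57). Sostdc1 had a log2 ratio of 0.49 (0.46 to 0.51), Cck 0.38 (0.35 to 0.42) and Hopx 0.37 (0.33 to 0.40). Pkp1 was slightly lower in the chosen cells, at -0.11 (-0.19 to -0.03), and without cells carrying markers of the 8 other classes it was 0.10. With S100b not counted among those markers it was -0.13, so its direction depends on whether cells with S100b are kept. None of the 5 reached 2-fold. The second-set markers, left out in the same way, were lower in the chosen cells: Ndnf by a log2 ratio of -1.89, Inmt of -1.05, Slit2 of -0.74, Irf7 of -0.73 and Tmem255a of -0.50. Over 2025 NP cells thinned to 5000 UMIs, Sostdc1 was detected in 87.6% of Nrn1-positive and 78.5% of Nrn1-negative cells, and Pkp1 in 55.1% and 56.8%. The name therefore describes the rule, and the cells are called members below.

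The rule sets a limit on a count of detected genes, and whether the members are a separate type or part of a range was not tested. Of the members, 383 had all 5 first-set markers, 228 had 4, 42 had 3 and 5 had 2. None of the second set was detected in 18 members. The first set exceeded the second by 1 gene in 246 members (37.4%), by 2 in 230 and by 3 or more in 182. Just inside the limit, the 246 cells had 179 Nrn1 CPM and 456 Inmt CPM; just outside it, 201 cells with equal numbers and at least 2 first-set markers had 93.5 and 740. Several genes that the rule did not use were graded over the same steps. From the NP cells with the lowest difference (113 cells, Wnt16 at 0 and not cycling) to the members with the highest (182 cells), Meltf went from 98.9 to 1246 CPM. Meltf encodes melanotransferrin, an iron-binding membrane protein. Cspg4, a membrane proteoglycan also known as NG2, went from 135.7 to 569 CPM, and the receptor Fgfr3, known for its role in growth cartilage, from 42.5 to 275. The sulfate transporter Slc26a2 went from 78.2 to 389 and Fn1 (fibronectin) from 3217 to 14378. Car3, of which the rule asks only a minimum, went the other way, from 26695 to 11077 CPM, as did the guanylate-binding protein gene Gbp2 (322 to 25.7). Krt8 had 2989.97 and 3016 CPM at the ends and T 1488 and 1219. The lowest step had a median of 5560 UMIs a cell and the highest 19639, and the part of depth in these steps was not tested; across the 3 steps of members the medians were 19718, 19399 and 19639 UMIs and Meltf had 796, 992 and 1246 CPM. The first of these steps holds 247 cells, of which 246 are members.

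**Figure D2:**
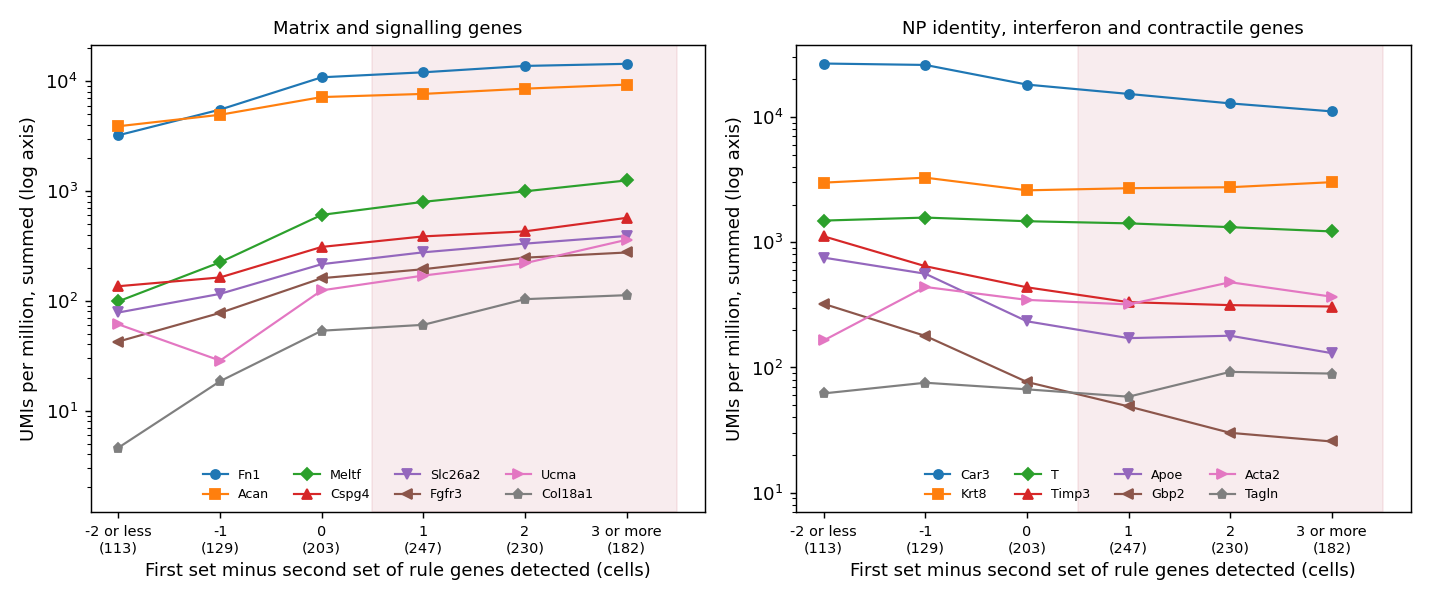
Summed level (UMIs per 1000000, log axis) of genes outside the first and second sets, over steps of the number of first-set minus second-set genes detected, in NP cells with Wnt16 at 0 that were not cycling. Shading marks the steps that hold members, and numbers in brackets count cells; Meltf goes from 98.9 to 1246 and Car3 from 26695 to 11077.

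Against all other NP cells, members were higher in a small set of low to moderate genes. Of 11330 genes with at least 100 UMIs in both groups together, 54 (0.477%) were at least 2-fold higher in members and 227 (2%) at least 2-fold lower. The 12 named by the bound of the interval nearest 0 include 2 potassium channels, Kcnj12 (4.81 and 1.40 CPM; log2 ratio 1.78, interval 1.22 to 2.35) and Kcnk10 (7.97 and 2.84; 1.49, 1.08 to 1.90). Gfra1, a receptor subunit for glial cell-derived neurotrophic factor, had 6.87 and 2.03 CPM (1.76, 1.30 to 2.24), with 42.0% of its UMIs in 5 cells. The glutamate transporter Slc1a1 had 11.5 and 4.33 CPM (log2 ratio 1.41) and the lipid transfer gene Sec14l2 12.5 and 4.4 (1.51). Among transcription factors, Pou2f2 had 12 and 4.65 CPM (1.37, 1.05 to 1.70) and the orphan nuclear receptor Nr4a2 106.7 and 52.7 (1.02, 0.92 to 1.12). The connexin Gjc3 (chromosome 5, 137953461 to 137963098) had 60.4 and 27.8 CPM (1.12, 0.98 to 1.26). It was detected in 44.2% of members and 20.3% of other NP cells, and in 9.73% and 2.98% after thinning. The long noncoding RNA Meg3 had 285 and 143 CPM (0.99, 0.93 to 1.05) and the uridine phosphorylase Upp1 16.02 and 7.33 (1.13). Ltbp4, a binding protein of latent TGF-beta, had 46.6 and 21.2 CPM (1.14). In endothelial cells Ltbp4 had 1375 CPM, 29.9% of its UMIs in members came from 5 cells, and without the 5 highest cells of each group the ratio was 0.98. Of these 12 genes, 11 were measured against the Wnt16 cells alone and 11 were at least 2-fold higher there too, where 90 of 10683 genes (0.842%) were higher and 81 (0.758%) lower. Those cells are part of the first comparison.

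Of the 12 lowest genes, 11 act in or mark the cell cycle (Pbk, Ccnb1, Hmmr, Pimreg, Aurkb, Cenpf, Ccna2, Cdca8, Ube2c, Rrm2, Pclaf), with log2 ratios from -5.81 (Pbk) to -3.98 (Ube2c). The rule removed cycling cells from the members, so these ratios are set by it. The last was Col10a1, a collagen of hypertrophic cartilage, at 4.95 and 93.1 CPM (-4.23, -4.59 to -3.90). In the other NP cells 91.1% of its UMIs came from 5 cells, and without the 5 highest cells of each group the log2 ratio was -0.99. A comparison with the 1392 other NP cells that were not cycling was therefore added after the values were seen. It gave 79 of 11021 genes (0.717%) at least 2-fold higher and 91 (0.826%) lower.

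In that comparison 9 of the 12 highest genes were also among the 12 of the first comparison; the others were Crabp2, which binds retinoic acid (6.80 and 2.32 CPM, log2 ratio 1.55), the Notch-modifying enzyme Lfng (5.43 and 1.95, 1.48) and the collagen Col18a1 (88.7 and 41.3, 1.10). With cycling cells counted among the others, the ratios were 1.23 for Crabp2, 1.10 for Lfng and 0.80 for Col18a1, the last under 2-fold. Against the cells not cycling, Col10a1 was again among the lowest (-4.46, or -1.07 without the 5 highest cells). The homeobox gene Dlx5 had 2.27 and 10.6 CPM (-2.22, -2.78 to -1.70), Fam181b 2.75 and 16 (-2.54), the reelin adaptor Dab1 0.825 and 7.43 (-3.17) and the apelin receptor Aplnr 1.31 and 8.75 (-2.74). Sarcolipin (Sln), a regulator of the calcium pump of muscle, had 1.31 and 17.4 CPM (-3.74), and the kinase Pdk4, which restrains pyruvate oxidation, 0.687 and 4.16 (-2.60). The interferon-induced Ifi44 had 5.02 and 18.2 CPM (-1.86), the zinc transporter Slc39a8 11.7 and 37.4 (-1.68) and Nkain4 1.17 and 5.00 (-2.10). For Bmp2 (6.67 and 24.1, -1.86) and the bone sialoprotein gene Ibsp (27.8 and 225, -3.02), 60.7% and 78.7% of the UMIs in the other cells came from 5 cells. Without the 5 highest cells of each group their ratios were -1.75 and -1.93. When cells carrying markers of the 8 other classes were left out, their ratios against all remaining NP cells were -0.35 and -0.46, under 2-fold.

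Matrix genes as a group lay above the median gene. Over all 11330 genes of this comparison, 2234 had an interval above 0 and 1975 below, the background for each list count. Among 32 gene lists, the list of cartilage and NP matrix had 28 measured members, of which 20 had an interval above 0, 5 below, and 1 was at least 2-fold higher (Cilp). Its median log2 ratio was 0.30 (interval of the median 0.07 to 0.36), beside 0.01 for all genes. Aggrecan (Acan) had 8386 and 6768 CPM in members and other NP cells (log2 ratio 0.31, 0.30 to 0.32). In single cells it ranged from 310.5 to 33912 CPM with a median of 7960 in members, and from 0 to 26512 with a median of 5411 in the others. Col2a1 had 3697 and 2921 CPM (0.34), with medians of 1368 and 329 in single cells; the groups overlap, and 5 cells held 14.6% and 12.7% of the UMIs. Fibromodulin (Fmod) had 3200.2 and 2571 CPM (0.32), and Snorc, a chondrocyte membrane proteoglycan listed under 3110079O15Rik, 1587 and 1149 (0.47). Cilp stood at 21.9 and 6.24 CPM (1.81), but 88.1% of its UMIs in members came from 5 cells.

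The fibrous and pericellular matrix had 36 measured genes, 22 with an interval above 0 and 6 below, and a median of 0.27 (0.08 to 0.41). Fn1 had 13239 and 9981 CPM (0.41, 0.40 to 0.42). Its single-cell levels ran from 500 to 44003 with a median of 12584 in members, and from 0 to 36841 with a median of 6495 in the others. The upper quartile of the other NP cells (11790.5) lay below the median of the members. Collagen VI (Col6a1), which surrounds each cell, had 1166 and 832 CPM (0.49). Lum and Efemp1 were past 2-fold lower (-1.18 and -1.28) at under 5 CPM in both groups. Of their UMIs, 92.3% and 76.9% in members and 64.6% and 50.4% in the others came from 5 cells. Without the 5 highest cells of each group their ratios were -3.38 and -2.37. Of 29 genes for hyaluronan and proteoglycan synthesis, 14 had an interval above 0 and 5 below (median 0.15, -0.04 to 0.41). They include Slc26a2, with 325 and 207 CPM (0.65, 0.60 to 0.70), Xylt1, which starts glycosaminoglycan chains, with 432 and 365 (0.24), and Chst15, a chondroitin sulfotransferase, with 5.09 and 2.31 (1.14). Basement membrane genes had a median of 0.18 (-0.11 to 0.41), with Hspg2 (perlecan) at 408 and 326 CPM (0.32) and Nid2 at 116 and 83.5 (0.48). Among matrix proteases and inhibitors, 8 of 20 had an interval above 0 and 4 below. The inhibitor Timp3 was lower in members (319 and 523 CPM, -0.71), as was Adamtsl1 (13.8 and 35.7, -1.37), while the protease Htra1 had 3553 and 3268 CPM (0.12). Cspg4, Fgfr3 and Ucma, named after their values were seen or by the comparison below, had log2 ratios of 0.81 (0.77 to 0.86), 0.79 and 0.84.

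**Figure D3:**
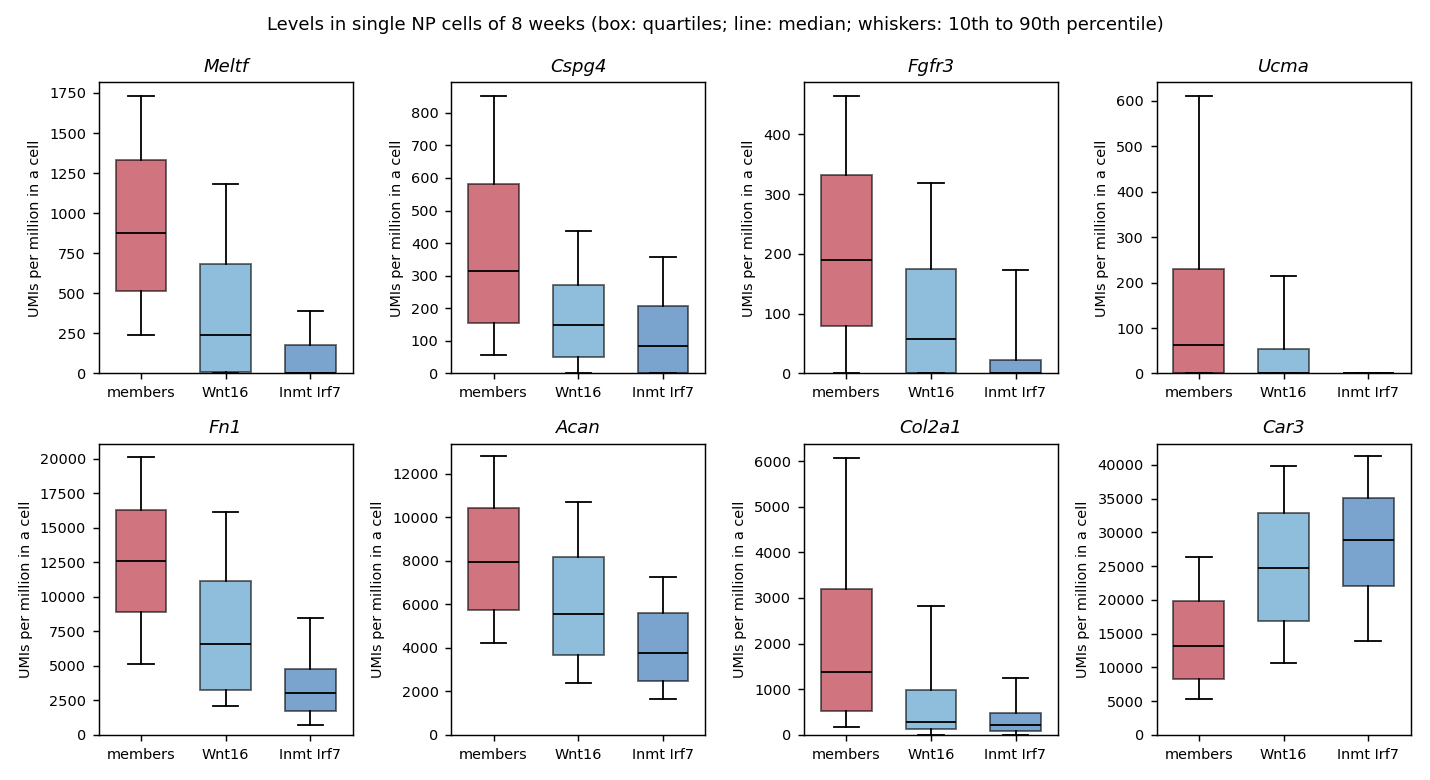
Levels in single cells (UMIs per 1000000 of the cell) of 8 genes in members, Wnt16 cells and Inmt Irf7 cells; boxes give quartiles, lines medians and whiskers the 10th to 90th percentile. Members have the highest medians of Meltf (877), Cspg4 (313), Fgfr3 (190.0), Fn1 (12584), Acan (7960) and Col2a1 (1368), and the lowest of Car3 (13234), with overlap in every gene.

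Several NP identity genes were lower in members and a few were higher. Car3 and the keratins were used by the rule and are a description: Car3 had 13337 and 19963 CPM in members and other NP cells, and Krt8 a log2 ratio of 0.03. Among all 11330 genes, 2234 had an interval above 0 and 1975 below. Of 15 measured notochord and hedgehog genes, 4 had an interval above 0 and 7 below, with a median of -0.05 (-0.20 to 0.30). The 4 higher genes, named after their values were seen, were the transcription factors Sox5 (58.8 and 47.7 CPM, 0.30), Sox6 (178 and 158, 0.18), Pax1 (12.2 and 9.73, 0.33) and Bsx (9.14 and 5.27, 0.79). Pax1 turned to -0.47 among cells of 10000 to 30000 UMIs. T had 1330.5 and 1475 CPM (-0.15, -0.17 to -0.13), the surface protein Cd24a 2002 and 2390.2 (-0.26), the lactate transporter chaperone Bsg 1177 and 1411 (-0.26) and Sox9 1394 and 1444 (-0.05). N-cadherin (Cdh2) had a log2 ratio of -0.08 and the glucose transporter Slc2a1 of -0.14. Intervals of Foxa1 (-0.20) and Foxa2 (0.04), at under 5 CPM, include 0. Among other keratins Krt7 had 19.6 and 37.8 CPM (-0.95) and Krt80 173 and 176 (-0.02), while Krt20 had 27.98 and 23.6 (0.25, 0.07 to 0.42) and Krt78 9.21 and 5.11 (0.85, 0.51 to 1.19).

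Signalling lists differed in direction, and the insulin-like growth factor list had the largest median. As background, 2234 of all 11330 genes had an interval above 0 and 1975 below, and list counts near that share are no result about the list. Of 19 Wnt ligands and receptors, 3 had an interval above 0 and 2 below (median -0.09), and of 8 Wnt inhibitors, a list without Sostdc1, 2 above and 1 below (0.05); Sfrp5 had 31.5 and 20.02 CPM (0.65). Of 6 Wnt targets 2 were above, among them Ccnd1 with 143 and 110.5 CPM (0.37). TGF-beta and BMP ligands had 6 of 11 above and 2 below (median 0.15), with Tgfb2 at 241 and 197 CPM (0.29) and the procollagen protease Bmp1 at 57.1 and 43.03 (0.41). Their antagonists had 3 of 14 above and 4 below (-0.03), with Nog at 2.27 and 4.80 CPM (-1.08), mostly from 5 cells in either group. Receptors and targets had 5 of 18 above and 7 below (-0.07), and the BMP-responsive Id4 had 314 and 456 CPM (-0.53). Insulin-like growth factor genes had 8 of 10 above and 1 below (median 0.43, 0.12 to 1.23), and Igfbp7 had 589 and 495 CPM (0.25). In that list Igfbp3 and Igfbp4 were past 2-fold, but 100% and 82.7% of their UMIs in members came from 5 cells. Without the 5 highest cells of each group Igfbp4 turned to -0.60, and Igfbp3 had no UMI left in members. The median of the list lay between 0.17 and 0.43 over the main setting and its alternatives. Among axon guidance genes 9 of 29 were above and 10 below (0.02), with Sema3c at 75.9 and 59.7 CPM (0.35) and Epha4 at 73.3 and 116 (-0.66). Sema7a and Efnb2 were past 2-fold higher at under 5 CPM, with 31.9% and 44.1% of their UMIs in members from 5 cells. Without the 5 highest cells of each group their ratios were 0.84 and 0.71, under 2-fold. The connexin Gja1, which couples cells in gap junctions, was lower in members (419 and 660 CPM, -0.66), the reverse of Gjc3. Carboxypeptidase E (Cpe), which processes peptide hormones such as cholecystokinin, had 647 and 489.7 CPM (0.40).

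For metabolism, stress and contraction the list medians lay within 0.2 of 0. The background was again 2234 genes above and 1975 below among all 11330. Glycolysis and hypoxia had 4 of 30 genes above and 13 below (median -0.05), with Gapdh at -0.13, Ldha at 0.04 and the oxygen sensor Egln3 at 8.18 and 20.2 CPM (-1.31). Oxidative phosphorylation had 13 of 40 above and 5 below (0.03). Immediate early and heat shock genes had 21 of 27 above and 3 below (median 0.14, 0.09 to 0.28), with Egr1 at 0.27 and Junb at 0.11. Genes of endoplasmic reticulum folding had 13 of 24 above and 1 below (0.16), including Hspa5 (0.27) and Calr (0.36). Interferon response genes had 8 of 34 above and 7 below (0.06); Ifi44 (-1.69) and Rsad2 (-1.40) were past 2-fold lower, and Irf7 was in the rule. Among acute phase genes and chemokines, 11 of 18 were above and 3 below (0.11), while Nfkbia had a ratio of -0.33 and Ccl7 of -0.38. Among contractile genes with targets of serum response factor, 8 of 28 were above and 10 below (-0.04), and Acta2 had 387 and 396 CPM (-0.04, -0.08 to 0.01). Tagln itself had a ratio of 0.03, and of -0.12 without the 5 highest cells of each group. The chloride cotransporter Slc12a2 had 525 and 711 CPM (-0.44). Of proposed disc progenitor markers 5 of 12 were above and 1 below (0.14). Of imprinted growth genes 4 of 12 were above and 5 below (-0.02), with Peg3 at -0.20. The remaining lists had small medians as well: desmosomes, cadherins and tight junctions -0.06 (5 of 16 above, 8 below), YAP and TEAD targets -0.02 (5 of 16, 4 below), metallothioneins and antioxidants 0.06 (8 of 24, 4 below) and osmotic, ion and water transport 0.04 (10 of 29, 10 below). The short lists were serpins at 0.22 (4 of 11, 3 below), neuropeptides and neurotrophic factors at -0.04 (4 of 10, 3 below), connexins and pannexins at 0.07 (2 of 7, 3 below) and keratins outside the rule at 0.12 (2 of 5, 1 below).

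**Figure D4:**
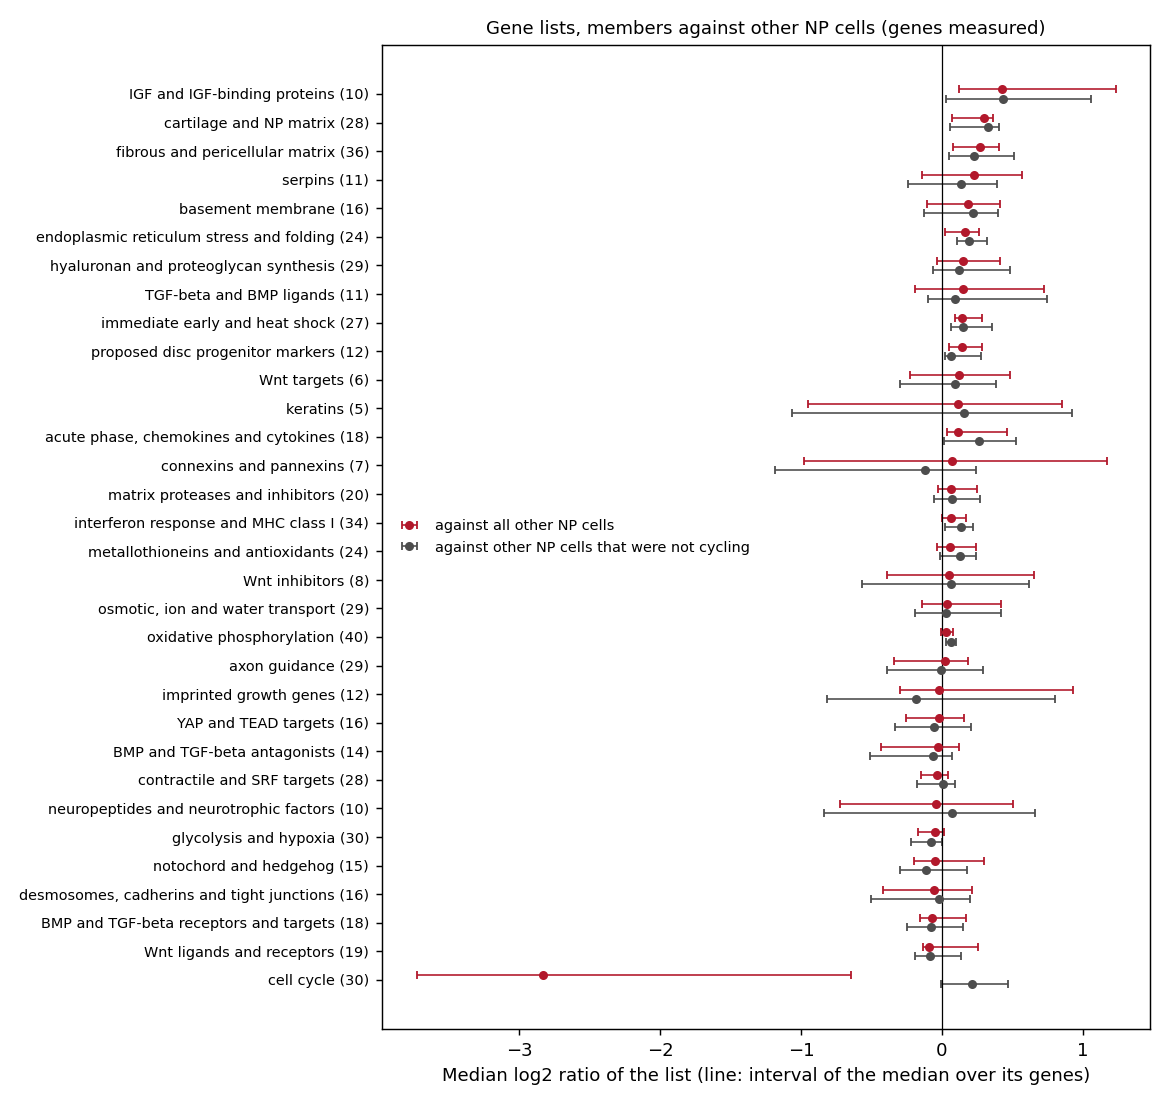
Median log2 ratio of each of the 32 gene lists, members against all other NP cells and against those that were not cycling; lines are intervals of the median over the list's genes, and brackets count genes measured. Cartilage and NP matrix (0.30) and fibrous matrix (0.27) lie above 0 in both, and the cell cycle list goes from -2.83 to 0.21 once cycling cells are left out.

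The Inmt Irf7 cells, which have more second-set than first-set markers by the rule, differed more. Of 9442 genes, 344 (3.64%) were at least 2-fold higher in members and 163 (1.73%) lower. As background for the lists, 1978 of the 9442 genes had an interval above 0 and 1627 below. The members were deeper, with medians of 19657 and 9542 UMIs a cell. Meltf had 981 and 186 CPM (log2 ratio 2.40, interval 2.27 to 2.52) and was detected in 98.0% of members and 44.2% of Inmt Irf7 cells, or in 80.5% and 18.1% after thinning. Ucma, a secreted cartilage protein that limits mineral deposition, had 236 and 38.3 CPM (2.62, 2.35 to 2.91), and Col18a1 88.7 and 14.3 (2.63). The lipoprotein-associated phospholipase Pla2g7 had 16.6 and 1.39 CPM (3.57). Pou2f2 had no UMI in the Inmt Irf7 cells; the lower end of the exact interval of its log2 ratio was 3.21, and 3.52 was the ratio against a floor of 3 counts over that group. Of 27 cartilage and NP matrix genes, 16 had an interval above 0 and 9 below (median 0.26, -0.42 to 0.89), with 6 past 2-fold higher and 4 lower (Col9a2, Cnmd, Chadl and Mia, from -1.11 to -1.15). Of 29 fibrous matrix genes, 15 were above and 6 below (median 0.34, -0.16 to 0.72), with 6 past 2-fold higher and 2 lower (Thbs1 at -1.31 and Eln at -1.31). The higher ones included Fn1 (13239 and 4812 CPM, 1.46), Fmod (1.10) and Snorc (1.14); the sulfate transporter Slc26a2 was also past 2-fold (1.64).

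Higher in the Inmt Irf7 cells were 2 interferon-induced genes besides the rule's Irf7, namely Gbp2 (36.4 CPM in members and 222 in Inmt Irf7 cells, -2.61, -2.78 to -2.44) and Ifi44 (5.02 and 32.8, -2.71). Slc39a8 had 11.7 and 66.2 CPM (-2.50), Adamtsl1 13.8 and 70.8 (-2.36), Fam135b 8.66 and 43.9 (-2.34) and the calmodulin-binding Pcp4 24.0 and 105.6 (-2.14), the last with 69.3% of its UMIs in 5 cells. Yet over the interferon list 6 of 29 genes had an interval above 0, 4 below, and the median was 0.12 (-0.07 to 0.29).

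The share of cells with the lineage reporter was lower in members than in other NP cells. The deposited reporter counts hold TDT, the tdTomato sequence, and WPRE4, named like the WPRE element that follows many reporter genes; the labels do not describe it. At least 10 WPRE4 UMIs were present in 333 of 658 members (50.6%, 46.7 to 54.5%) and in 974 of 1519 other NP cells (64.1%, 61.7 to 66.5%). The shares were 67.9% in Wnt16 cells, 62.8% in Inmt Irf7 cells, 57.8% in cells of neither description and 48.8% (39.9 to 57.8%) in cycling cells. None of 98 leukocytes (median 6417 UMIs) passed, with an exact upper bound of 3.69%, and 15.9% of 126 endothelial cells did. In cells with at least 5000 UMIs, at least 1000 WPRE4 CPM were present in 50.1% of members and 63.7% of the others, and 2.68% of such members lay between 200 and 1000 CPM. Summed WPRE4 was 2152 CPM in members and 2613 in other NP cells, a log2 ratio of -0.28 (-0.30 to -0.26). TDT was sparse, at 26.6 CPM (387 UMIs) and 31.1 CPM, a ratio of -0.23 (-0.40 to -0.06). Over the steps of the rule the share of cells with at least 10 WPRE4 UMIs was 58.3% in the 247 cells with a difference of 1, 48.7% at 2 and 42.3% at 3 or more. Outside the limit it was 58.1% at a difference of 0, 63.6% at -1 and 61.9% at -2 or less. The share was thus nearly the same just outside and just inside the limit. All of this comes from 1 library, so its variation between mice was not tested.

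**Figure D5:**
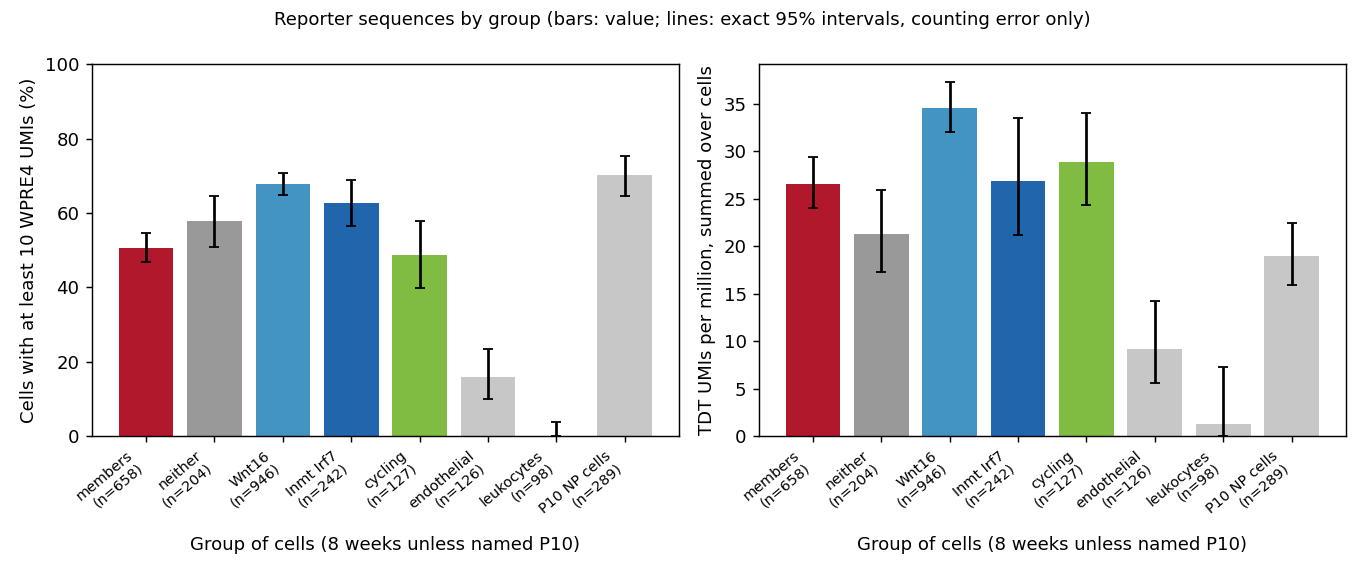
Left, share of cells with at least 10 WPRE4 UMIs; right, summed TDT level in UMIs per 1000000, by group, with exact 95% intervals for counting error. The share is 50.6% in members, 67.9% in Wnt16 cells and 0 in leukocytes.

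Few genes differed by 2-fold between members with and without the reporter. The 333 members with at least 10 WPRE4 UMIs had 49.4 TDT CPM, and the 203 with 0 or 1 had 0.564. The 122 members with 2 to 9 WPRE4 UMIs, at 4.28 TDT CPM, were in neither group. Of 8266 genes, 22 (0.266%) were at least 2-fold higher and 20 (0.242%) lower in the 333 members than in the 203. Some of these rested on few cells: the endothelial gene Egfl7 (log2 ratio 2.64) had 84.8% of its UMIs in 5 cells and Myoc (-2.21) 95.8%. Ltbp4 had 57.9 and 22.01 CPM (1.40, 1.04 to 1.76), and 1.26 without the 5 highest cells. Tagln had 83.6 and 62.9 CPM (0.41, 0.19 to 0.64) and Acta2 419 and 329 (0.35, 0.25 to 0.45). Nrn1 had 187 and 206 CPM (-0.14), Sostdc1 1325 and 1321, and Meltf 883 and 1028 (-0.22). The 122 members in neither group had 81.8 CPM of Tagln, near the 333 despite their low TDT, and 374 of Acta2, between the groups. Their Nrn1 (212 CPM), Sostdc1 (1452) and Meltf (1142) were above both groups. Over the 3 groups Acta2 therefore rose at each step of WPRE4. Tagln rose from 62.9 to 81.8 and 83.6 CPM, with overlapping intervals in the 122 and the 333 members. Nrn1, Sostdc1 and Meltf did not rise in step with the reporter.

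In 635 members thinned to 5000 UMIs, the Fano factor (variance over mean of the UMIs per cell) had a median of 1.05 over 5514 genes. Col1a2 was at 166 and Col1a1 at 97.8, but 53.5% and 34.6% of their UMIs came from 5 cells. Sparc followed at 44.6 and Col2a1 at 40.0, with 8.74% and 9.50% of UMIs in 5 cells, and Malat1, a nuclear noncoding RNA, at 38.4. Next came Dcn at 28.7, with 72.9% of its UMIs in 5 cells, and Chad at 27.6, with 50.6%, then Spp1 and Mgp. Col2a1 and Sparc went together (Spearman 0.53 over 635 cells of 1 library at equal depth, a description), and Col2a1 with Mgp at 0.36.

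Applied to P10, the rule found 43 cells among 289 NP cells (14.9%, 10.98 to 19.5%). In these cells Nrn1 had 3 UMIs in 1 of the 43 cells (3.45 CPM, 0.711 to 10.1), against 197.6 CPM at 8 weeks. Sostdc1 had 1931 CPM in them, Cck 851, Hopx 615 and Pkp1 79.3. Meltf was at 149 CPM there, Fn1 at 6504, Gjc3 at 4.6 and Meg3 at 844. These values are set beside those of 8 weeks with no test, since each age is 1 library.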

How the data were processed

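Barcodes and genes were counted with Cell Ranger 3.1.0 on build mm10, per the file headers and the submitters' processing notes, which also name Seurat 3 with no stated role. What the authors deposited are unnormalized UMI counts, with the 4 samples of an age in 1 matrix of genes and 1 of 96 exogenous sequences. The deposited name lists hold other content, the text names of cells and features.

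Cells were kept with at least 500 genes, 1000 UMIs and at most 15% mitochondrial UMIs (Python 3.11.15). Ratios have exact conditional binomial intervals, levels Poisson and shares Clopper-Pearson intervals, all at 95% and for counting error only. Genes needed 100 UMIs over both groups. The calculations were tested on simulated data, and the criterion for interval coverage was loosened after a class of simulated lower genes missed it. Cells of 1 library are not replicates, so no p-value was computed. Scrublet (Scanpy 1.11.5) marked 139 of 6481 cells (2.14%) of 8 weeks as doublets, which were kept and left out in an alternative.

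Members, comparisons and the 32 gene lists were chosen with earlier results of these data known. Named genes are the 12 highest and 12 lowest (6 and 6 against Inmt Irf7 cells) by the interval bound nearer 0, with a UMI in at least 5% of the higher group's cells. Genes of the rule, mitochondrial, ribosomal, hemoglobin, sex-linked and predicted genes were left out of that ranking. Up to 4 genes of each list, NP markers, Tagln, Acta2 and the reporter were added. Some genes that this rule names are not reported here. Depth, doublets, other-class cells, weighting, centring, minimum counts, fold, marker number, mitochondrial limit and comparison cells were varied.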

Additional observations from a re-analysis of the deposited data

How the results depend on the processing

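No paired analysis was possible because the matrices do not map cells to the numbered samples, and for the same reason no sample could be left out. The share of members was 35.6% in cells thinned to 5000 UMIs, 33.5% in cells with 10000 to 30000 UMIs, and 20.1% without cells carrying markers of another class, a step that mostly removes cells with S100b. Against other NP cells, 161 genes were at least 2-fold higher with every cell weighted the same, 289 with a minimum of 20 UMIs, 30 after thinning and 309 at a fold of 1.5. Lower genes numbered 433 at that minimum, 85 after thinning, 145 in the depth range, 127 without other-class cells, 487 at a fold of 1.5, 75 against cells neither cycling nor Wnt16 positive and 91 against cells not cycling. Against Inmt Irf7 cells, higher genes numbered 587 with equal weights, 890 at the lower minimum, 226 after thinning, 129 without other-class cells and 1044 at a fold of 1.5; lower genes numbered 394, 90, 65 and 650 under the last 4 of these. The WPRE4 log2 ratio stayed below 0 in all 12 alternatives computed for it: -0.36 with equal weights, -0.37 thinned, -0.25 in the depth range and also without doublet calls, -0.34 without other-class cells, -0.21 against cells neither cycling nor Wnt16 positive and -0.35 against cells not cycling. Without other-class cells 1 held-out marker, Nrn1, passed 2-fold (1.00), and Pkp1 turned to 0.10. With S100b not counted in that step, Nrn1 was at 0.52 and Pkp1 at -0.13. Of 109 named genes, 99 kept their sign in every alternative that measured them. Reversals were Col10a1 thinned (0.46), Sox9 in the depth range (0.022), Pax1 there (-0.47) and against cells neither cycling nor Wnt16 positive (-0.092), Igfbp4 in the depth range (-0.94) and without other-class cells (-0.053, or -0.038 with S100b not counted), Igfbp3 against cells neither cycling nor Wnt16 positive (-0.42), and, against cells not cycling, Cenpf (1.01), Ube2c (0.19) and the cell cycle list (0.21). Acta2 (-0.09 to 0.14), Tagln (-0.09 to 0.19) and Krt80 (-0.15 to 0.21), whose intervals include 0, also changed sign. The cause was not tested. The comparison with cells not cycling and the one without S100b were chosen after seeing the data. Of 32 list medians, 17 kept their sign throughout, and those that did not, other than the cell cycle, had medians from -0.07 to 0.22. Depth limits genes under 5 CPM, whose shares of cells rest on single UMIs.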
